A study of Mus musculus with 22 samples.

Results

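The miR-25, miR-32 and miR-92 family is a set of mature miRNAs that share 1 seed and are made from different places in the genome. The 5 members, mmu-miR-25-3p, mmu-miR-32-5p, mmu-miR-92a-3p, mmu-miR-92b-3p and mmu-miR-363-3p, were taken by name from a table of 1966 mature miRNA names. The family was chosen by the lower level of mmu-miR-32-5p in the mutants, and its seed relatives were then added by their seed. The levels of mmu-miR-32-5p in KO and KI are therefore given as a description with no test, and the question asked of the data is whether its relatives were lower as well.

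The libraries were made from small RNA of round spermatids (RS), male germ cells that have completed meiosis and are haploid, purified from mice aged 75 to 85 days. Batch 1 held RS of 5 WT samples and of 5 samples from mice without GRTH/DDX25, a testis RNA helicase (KO). Batch 2 held RS of 6 WT samples and of 6 samples from knock-in mice whose changed GRTH lacks the phosphorylated form of the protein (KI). In both mutants spermatids stop before they elongate, and each mutant was compared with the WT of its own batch, so KO and KI were never sequenced beside each other. In a purified cell fraction, fewer cells of a kind and less RNA per cell cannot be told apart.

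A miRNA guides an Argonaute protein to messenger RNAs, and the seed, bases 2 to 8 counted from the 5′ end, does most of the pairing with the target. Members of a seed family can therefore bind many of the same sites, and what a cell has of a seed is the sum over its members. The bases after the seed differ between relatives and set which reads can be assigned to which member. The mature sequences, from RefSeq on GRCm38.p6 and with the seed in capitals, are shown because the shared seed defines the family and the rest tells its members apart:
mmu-miR-25-3p: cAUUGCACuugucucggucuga
mmu-miR-92a-3p: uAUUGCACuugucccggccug
mmu-miR-92b-3p: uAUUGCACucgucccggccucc
mmu-miR-32-5p: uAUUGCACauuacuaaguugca
mmu-miR-363-3p: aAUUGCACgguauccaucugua
mmu-miR-367-3p: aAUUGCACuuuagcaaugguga

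The last sequence, mmu-miR-367-3p, is no member of the set. It was the only other name among the 1675 matched to RefSeq that carried the seed, and it had 0 counts in all 22 libraries, which allows up to 3 counts in each. Outside the seed the members fell into close and distant relatives. Aligned from the 5′ end, mmu-miR-92a-3p was identical to mmu-miR-92b-3p at 19 of 21 positions and to mmu-miR-25-3p at 18 of 21. For mmu-miR-32-5p the closest members were mmu-miR-25-3p and mmu-miR-363-3p, each identical at 13 of 22 positions, and after the seed it shared 3 of 13 bases with mmu-miR-92a-3p. GC content was 31.8% in mmu-miR-32-5p, 40.9% in mmu-miR-363-3p, 50% in mmu-miR-25-3p, 57.1% in mmu-miR-92a-3p and 63.6% in mmu-miR-92b-3p.

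The members lie at 6 loci on GRCm38. The gene of mmu-miR-25-3p is at chr5:138165332-138165353 on the minus strand, on the same strand as Mcm7 and overlapping an exon annotated for it, beside the genes of miR-93 and miR-106b. The gene of mmu-miR-32-5p is at chr4:56895272-56895293 on the minus strand, in an intron of Tmem245 on the same strand, and no other member or listed cluster product lies there. Copies of mmu-miR-92a-3p are at chr14:115044476-115044496 on the plus strand, in an exon of Mir17hg, the host transcript of the miR-17~92a cluster, and at chrX:52741854-52741874 on the minus strand in intergenic sequence. The latter belongs to the cluster of miR-106a and miR-363, as does mmu-miR-363-3p at chrX:52741697-52741718 on the minus strand. The gene of mmu-miR-92b-3p, at chr3:89227126-89227147 on the minus strand, is intergenic.

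Total counts per library were 870913 to 1081333 in WT and 559957 to 881323 in KO of batch 1, and 2067322 to 3239357 in WT and 2107461 to 3101145 in KI of batch 2, so the KO libraries were the shallowest. The germ cell markers mmu-miR-34b-5p, mmu-miR-34c-5p and mmu-miR-449a-5p were abundant in all 22 libraries, with a summed level of 187300 to 351400 CPM (CPM, that is, counts relative to the size of the library, which TMM adjusted within a batch). Replicate 2 of the batch 1 WT stood apart for this family. It had the highest mmu-miR-25-3p and mmu-miR-92a-3p of its group, and values that it moved are given without it as well.

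The members were far apart in level, and as all are 21 or 22 bases long, counts were compared without a length correction. No correction was made for other differences between the sequences, such as GC content. By mean share of all counts, mmu-miR-25-3p ranked 16 and mmu-miR-92a-3p ranked 19 among all names, whereas mmu-miR-32-5p ranked 201, mmu-miR-92b-3p 308 and mmu-miR-363-3p 611. This order held in the mean of every group except that mmu-miR-92a-3p was above mmu-miR-25-3p in KO. Libraries of the pair overlapped in level in KO and KI and did not in WT of batch 2. In WT of batch 1 they overlapped through replicate 2, and without it the level was 8759 to 9055 CPM for mmu-miR-25-3p and 7650 to 8051 CPM for mmu-miR-92a-3p, with no overlap. The order of the pair is uncertain in every group because mmu-miR-92a-3p has 2 loci, and a read may have been counted at both.

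mmu-miR-32-5p, the member that led to the choice of the family, was measured at 98.6, 100.4, 92.9, 104.9 and 90.3 CPM in the WT libraries of batch 1. In the KO libraries it was at 54.0, 55.1, 35.3, 35.6 and 46.2 CPM. Every KO library was below every WT library of the batch, on counts of 21 to 53 in KO and 85 to 112 in WT. The mean was 97.4 ± 5.88 CPM in WT (SD, n = 5) and 45.2 ± 9.55 CPM in KO (SD, n = 5), a log2 fold change of -1.09 with an SE of 0.15.

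In batch 2 mmu-miR-32-5p had a lowest, median and highest level of 70.5, 112 and 116.2 CPM in WT and of 51.5, 70.1 and 98.04 CPM in KI. Here the groups overlapped: replicates 1 and 3 of KI, at 96.6 and 98.04 CPM, lay above the 2 lowest WT libraries, at 70.5 and 84.7 CPM. The mean was 101.7 ± 19.3 CPM in WT (SD, n = 6) and 75.3 ± 18.6 CPM in KI (SD, n = 6), a log2 fold change of -0.43 with an SE of 0.17.

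**Figure D1:**
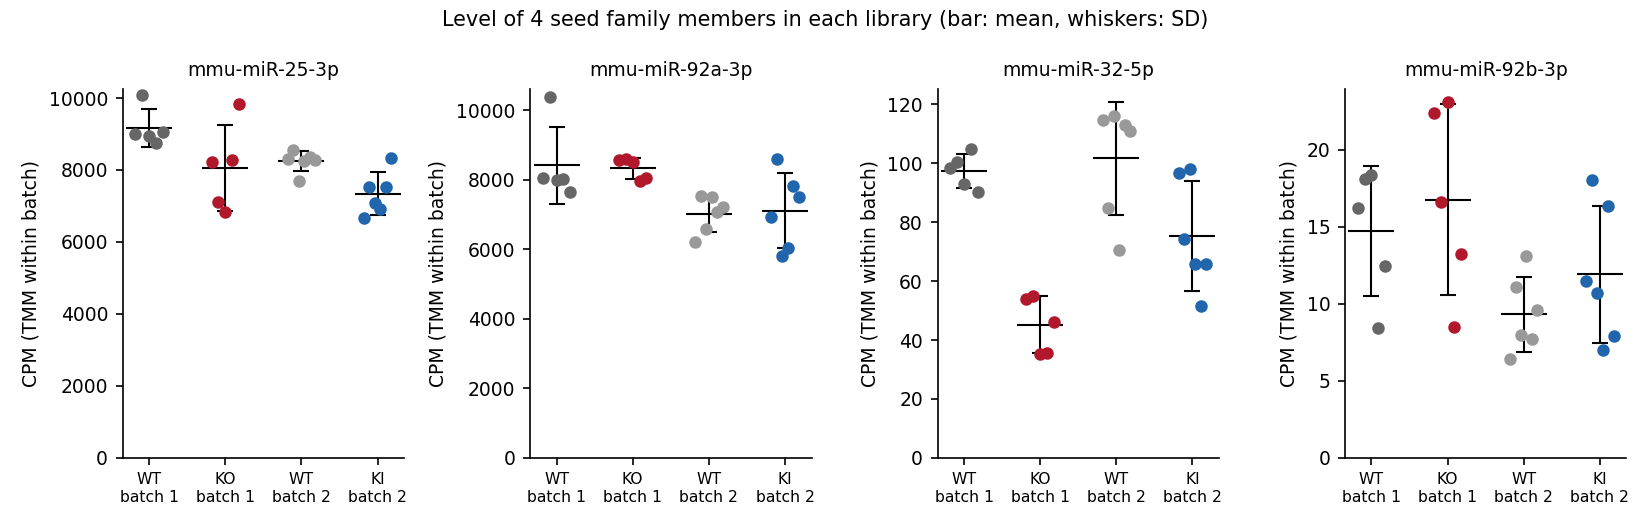
Level in CPM (y axis, TMM scaling within a batch, linear from 0) of the 4 members with enough counts in each library (points), by group (x axis), with the mean (bar) and the SD (whiskers). For mmu-miR-32-5p the 5 KO libraries, at 35.3 to 55.1 CPM, lie below all WT libraries of batch 1, whereas for the other 3 members mutant and WT libraries overlap in both batches.

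Of the other members, mmu-miR-25-3p was the only relative with a called difference in either mutant, and the difference was small. In batch 1 it was measured at 9000, 10080, 8948, 8759 and 9055 CPM in WT. In KO it was at 8231, 7116, 6835, 8273 and 9835 CPM. KO replicate 5 lay among the WT libraries, and the other 4 KO libraries lay below all of them. The mean was 9169 ± 523 CPM in WT and 8058 ± 1185 CPM in KO (SD, n = 5 each), and the log2 fold change of -0.19 (SE 0.09, 95% interval -0.39 to 0.02) did not pass the threshold of 0.1 (edgeR adjusted p = 0.137). Without KO replicate 5 the log2 fold change was -0.28 and passed (edgeR adjusted p = 0.0188), and without WT replicate 2 it was -0.15 and did not (edgeR adjusted p = 0.243). With library totals as the only scaling it was -0.08 (edgeR adjusted p = 0.396).

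In batch 2 the lowest, median and highest level of mmu-miR-25-3p was 7705, 8294 and 8561 CPM in WT and 6675, 7307 and 8323 CPM in KI. KI replicate 6 was among the WT libraries and the other 5 KI libraries were below the whole WT range. The mean was 8244 ± 286 CPM in WT and 7344 ± 586 CPM in KI (SD, n = 6 each). The log2 fold change was -0.17 (SE 0.05, 95% interval -0.28 to -0.05), a decrease that passed the threshold (edgeR adjusted p = 0.03). The call was lost without WT replicate 2 (log2 -0.14, edgeR adjusted p = 0.13) or without KI replicate 1 (log2 -0.10, edgeR adjusted p = 0.239), and it was also lost with library totals as the only scaling (log2 -0.08, edgeR adjusted p = 0.161) or with no filter on low counts (log2 -0.16, edgeR adjusted p = 0.175).

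mmu-miR-92a-3p, from the cluster that also gives miR-17 and miR-19, was at 8051, 10390, 7986, 8021 and 7650 CPM in the WT libraries of batch 1. In KO it was at 8570, 8590, 8522, 7956 and 8059 CPM. All KO libraries lay inside the WT range. The log2 fold change was -0.01 (SE 0.08, 95% interval -0.19 to 0.17, edgeR adjusted p = 0.907), and its sign turned with RLE scaling (log2 0.008), with library totals as the only scaling (log2 0.10) and without WT replicate 2 (log2 0.07). In batch 2 the lowest, median and highest level was 6209, 7148 and 7526 CPM in WT and 5814, 7216 and 8601 CPM in KI. The KI libraries spread to both sides of the WT range, and the log2 fold change was 0.02 (SE 0.09, 95% interval -0.17 to 0.21, edgeR adjusted p = 0.895).

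mmu-miR-92b-3p, the near twin of mmu-miR-92a-3p from a locus of its own, was scarce, with 5 to 44 counts per library. Its level was 16.2, 18.1, 18.4, 8.43 and 12.5 CPM in WT of batch 1. In KO it was 22.4, 16.6, 23.1, 8.47 and 13.2 CPM. The groups overlapped widely, and the log2 fold change was 0.23 (SE 0.30, 95% interval -0.42 to 0.88, edgeR adjusted p = 0.569). In batch 2 the lowest, median and highest level was 6.43, 8.78 and 13.1 CPM in WT and 7.01, 11.1 and 18.03 CPM in KI. The log2 fold change there was 0.35 (SE 0.25, 95% interval -0.19 to 0.89, edgeR adjusted p = 0.309). The intervals of mmu-miR-92b-3p were the widest of the 3 tested relatives, so a change in either direction could have been missed at this depth.

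mmu-miR-363-3p was close to absent. It had 24 counts in all 22 libraries together, at most 3 in a library, and 0 in 7 of them. The counts summed to 6 in WT and 1 in KO of batch 1 and to 12 in WT and 5 in KI of batch 2. Since 3 counts per library were taken as the floor, no fold change is given, and the member did not enter the KO or KI fit.

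In number, edgeR called 0 of the 3 tested relatives in KO (0 at an unadjusted p under 0.05), where 140 of all 334 miRNAs tested (41.9%) were called in either direction. In KI 1 of the 3 was called, lower, against 147 of 387 miRNAs (38.0%). The median log2 fold change of the 3 relatives was -0.01 in KO and 0.02 in KI, beside 0.015 and 0.001 over all miRNAs tested. With library totals as the only scaling, the median of all miRNAs moved to 0.13 in KO and 0.09 in KI. Relative to that median, mmu-miR-25-3p was at -0.21 in KO and -0.17 in KI, and mmu-miR-92a-3p at -0.03 in KO. The same scaling moved the split of the KO calls from 71 higher and 69 lower to 101 and 44, and that of the KI calls from 70 and 77 to 96 and 53.

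**Figure D2:**
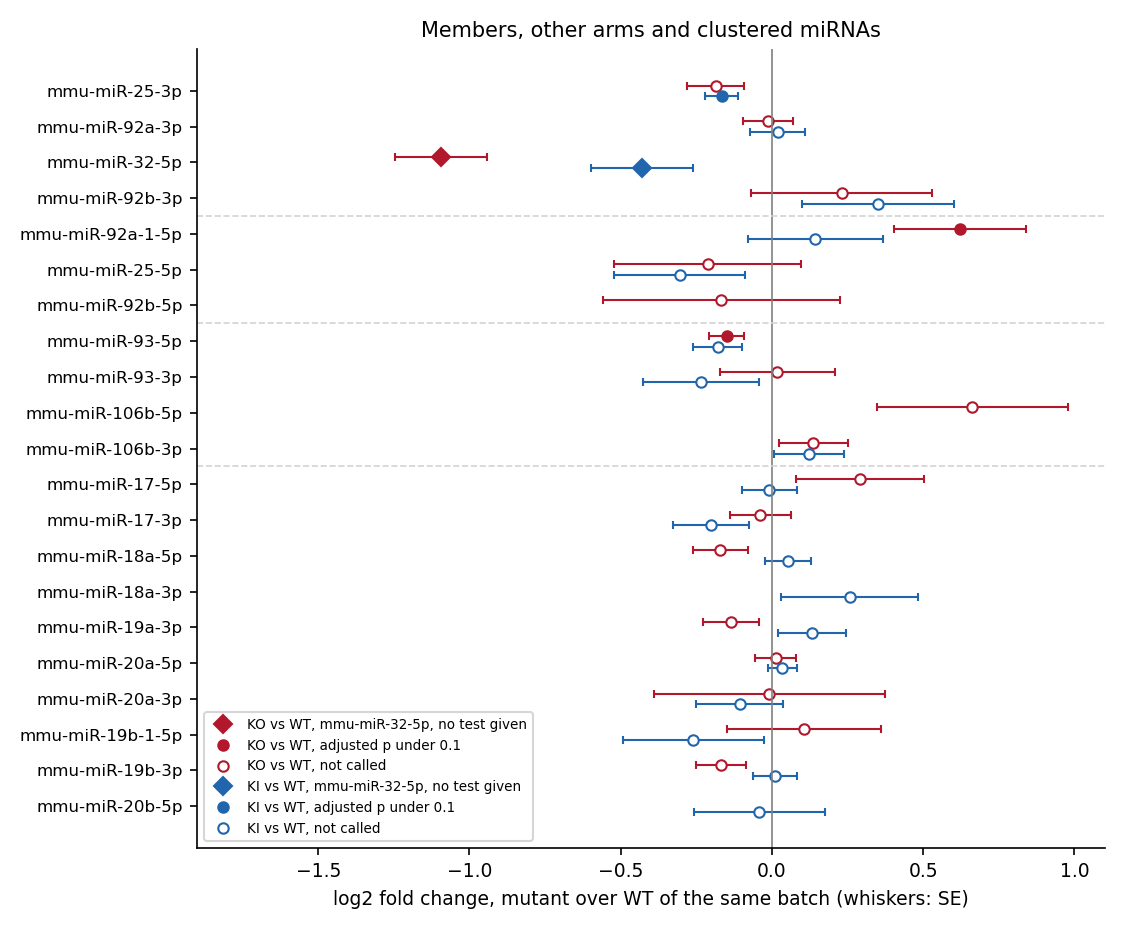
Log2 fold change of mutant over WT of the same batch (x axis, whiskers show the SE) for the members, the tested other arms of their hairpins and the tested miRNAs of their clusters (y axis, sections parted by dashed lines), in KO (red) and KI (blue). Filled circles passed an edgeR adjusted p of 0.1, open circles did not, and diamonds are mmu-miR-32-5p, given with no test; it lies at -1.09 in KO and -0.43 in KI, whereas the 3 tested relatives lie between -0.19 and 0.35.

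Added together, the 5 members held 1.70 ± 0.117% of all counts in WT and 1.71 ± 0.0369% in KO of batch 1 (SD, n = 5 each), and 1.493 ± 0.0658% in WT and 1.496 ± 0.126% in KI of batch 2 (SD, n = 6 each). Nearly all of it was mmu-miR-25-3p and mmu-miR-92a-3p, which together made up 99.13% to 99.73% of the family counts in every library. The share of mmu-miR-32-5p in the family counts was 0.553 ± 0.0492% in WT and 0.275 ± 0.0571% in KO (SD, n = 5 each), and 0.666 ± 0.147% in WT and 0.528 ± 0.166% in KI (SD, n = 6 each).

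On the TMM scale the summed level of the 5 members was 17700 ± 1623 CPM in WT and 16460 ± 999 CPM in KO (SD, n = 5 each), and 15380 ± 697 CPM in WT and 14550 ± 1461 CPM in KI (SD, n = 6 each). KO libraries ran from 15420 to 17950 CPM, and WT replicate 2, at 20600 CPM, was above every other library, whose WT values were 16810 to 17170 CPM. The difference between the means of mmu-miR-32-5p was -52.2 CPM in KO and -26.4 CPM in KI. This was -0.295% and -0.171% of the WT sum, beside a difference of the sum itself of -7.02% and -5.40%. Without WT replicate 2 of batch 1 the WT sum was 16980 ± 160 CPM (SD, n = 4) and the difference of KO from it -3.06%. In a further count, each of the 82 names with 2 or more loci, mmu-miR-92a-3p among them, had its counts split evenly over its loci. This lowered the library totals as well as the family counts. The 5 members then held 1.76% of all counts in WT and 1.71% in KO, and 1.498% in WT and 1.469% in KI. Splitting mmu-miR-92a-3p alone, with the other names left as they were, was not tested.

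**Figure D3:**
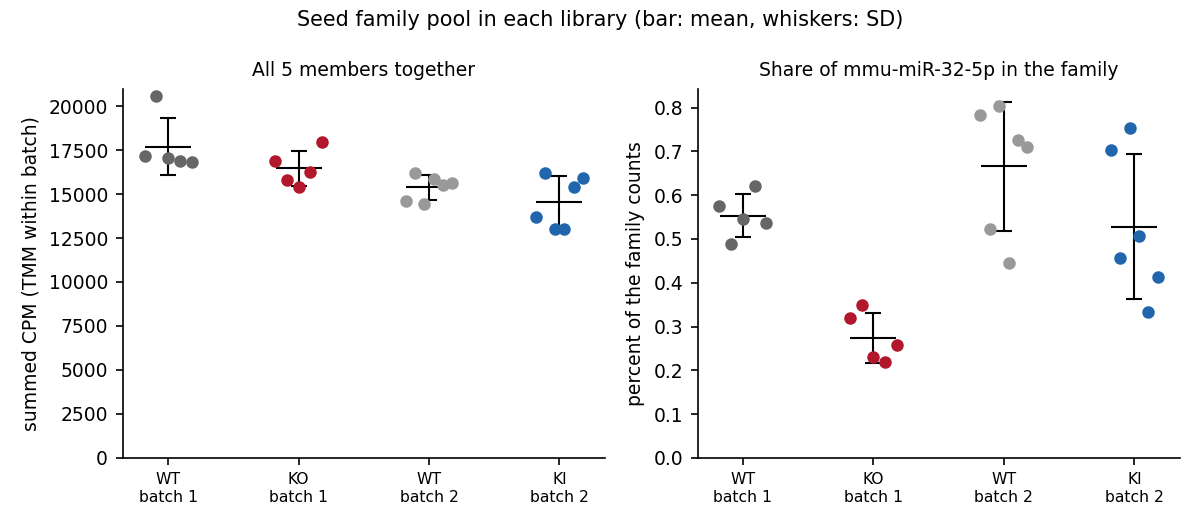
Summed level of the 5 members in CPM (left, TMM scaling within a batch, linear from 0) and percent of the family counts held by mmu-miR-32-5p (right) in each library (points), by group, with the mean (bar) and the SD (whiskers). The KO sums, at 15420 to 17950 CPM, overlap the WT sums, at 16810 to 20600 CPM, while the share of mmu-miR-32-5p is 0.219% to 0.349% in KO and 0.488% to 0.621% in WT of batch 1.

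A ratio between members of the same library does not depend on how libraries are scaled. The log2 ratio of mmu-miR-32-5p to mmu-miR-92a-3p ran from -6.69 to -6.26 in WT and from -7.91 to -7.29 in KO, without overlap. In batch 2 it ran from -6.74 to -5.76 in WT and from -7.25 to -5.89 in KI, with overlap. The mean log2 ratio of mmu-miR-25-3p to mmu-miR-32-5p was 6.56 in WT and 7.49 in KO, again without overlap, and 6.37 in WT and 6.64 in KI, with overlap. No test is given for these ratios, since mmu-miR-32-5p is in them.

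Among the other members, 6 differences of ratios were tested with two-sided exact permutation tests, adjusted over the 6. The log2 ratio of mmu-miR-25-3p to mmu-miR-92a-3p was 0.13 ± 0.11 in WT and -0.06 ± 0.25 in KO (exact p = 0.167, adjusted 0.26), and 0.23 ± 0.10 in WT and 0.06 ± 0.18 in KI (exact p = 0.0823, adjusted 0.26). The other 4 had exact p-values of 0.108 to 0.611 and adjusted values of 0.26 to 0.611. The smallest exact p that the samples allow is 0.00794 in batch 1 and 0.00216 in batch 2. No ratio between the relatives was found to differ beyond the spread of the libraries.

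**Figure D4:**
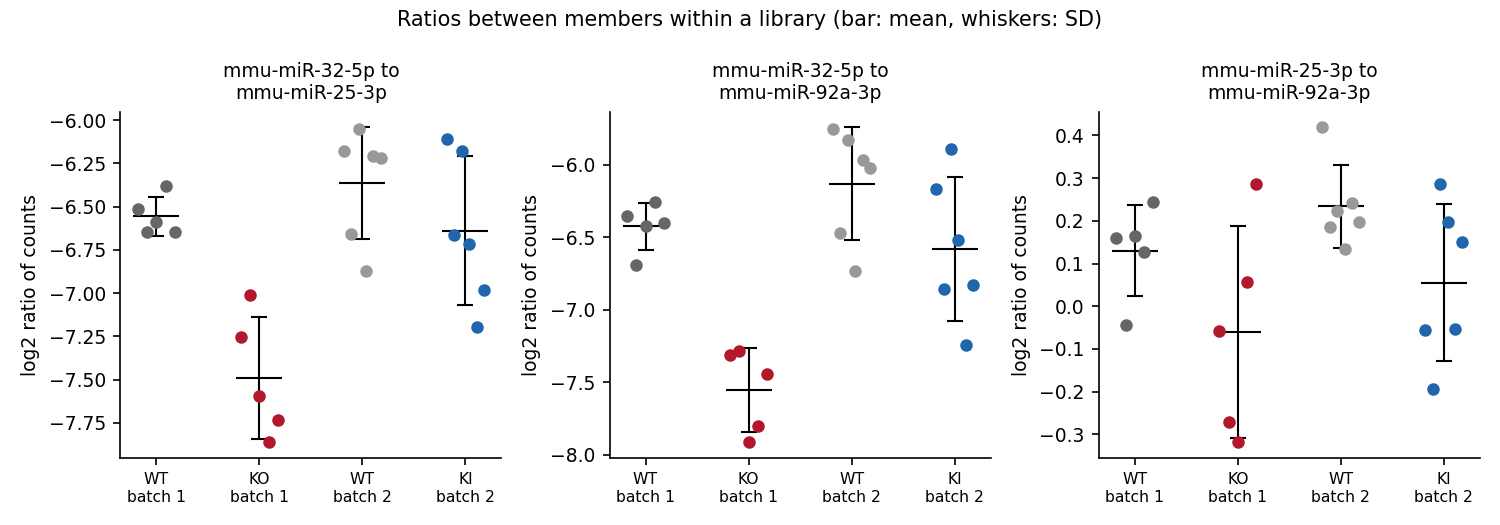
Log2 ratio of the counts of pairs of members (y axis, a separate range in each panel) in each library (points), by group (x axis), with the mean (bar) and the SD (whiskers). Against both abundant relatives the ratio of mmu-miR-32-5p is lower in all 5 KO libraries than in any WT library of batch 1, and the KI libraries overlap their WT; the ratio of mmu-miR-25-3p to mmu-miR-92a-3p overlaps in both batches.

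For members in clusters, the miRNAs cut from the same transcripts give a second view of the locus. No cluster partner was listed for mmu-miR-32-5p or mmu-miR-92b-3p. mmu-miR-93-5p, which lies beside mmu-miR-25-3p in the miR-106b~25 cluster and is about as abundant, was at 9131 ± 514 CPM in WT and 8230 ± 340 CPM in KO (SD, n = 5 each). The log2 fold change was -0.15 with an SE of 0.06 (edgeR adjusted p = 0.0679). In KI it was -0.18 with an SE of 0.08 and was not called (edgeR adjusted p = 0.109). With 1 library left out, it was called in KI in 4 fits (log2 -0.214 to -0.204) and not in 8. It was also called in KI under 2 alternative settings (log2 -0.205 and -0.189) and not under 4. The KO call was lost without WT replicate 2 (log2 -0.12, edgeR adjusted p = 0.134) and with library totals as the only scaling (log2 -0.04, edgeR adjusted p = 0.597), RLE scaling (edgeR adjusted p = 0.114) or no filter (edgeR adjusted p = 0.129). Over all miRNAs tested, edgeR called 41.9% in KO and 38.0% in KI. Of the miR-93 and miR-106b arms, edgeR called 1 of 4 tested in the KO libraries and 0 of 3 tested in the KI libraries. In KI 1 of them had an unadjusted p under 0.05, and the medians were 0.08 in KO and -0.18 in KI. From the same cluster, mmu-miR-25-3p was called lower in KI (log2 -0.17, edgeR adjusted p = 0.03) and was not called in KO. mmu-miR-106b-5p, with 49 counts in all WT and 60 in all KO libraries of batch 1, had a log2 fold change of 0.66 in KO (SE 0.32, edgeR adjusted p = 0.125). The value was 0.36 without KO replicate 3, and it was called without WT replicate 2 (log2 0.85), without KO replicate 1 (log2 0.79) and with library totals as the only scaling (log2 0.78).

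The miR-17~92a cluster encodes mmu-miR-92a-3p on chromosome 14 and is known from cell growth and development. For comparison, edgeR called 140 of all 334 miRNAs tested (41.9%) in KO and 147 of 387 (38.0%) in KI. Apart from the arms of the miR-92a hairpin, edgeR called none of this cluster's 8 products tested in KO or 9 tested in KI. None of these had an unadjusted p under 0.05, and the medians were -0.02 and 0.01. From the miR-92a hairpin of this cluster, mmu-miR-92a-1-5p was called higher in KO (log2 0.62, edgeR adjusted p = 0.0469). Of 8 listed products of the X chromosome cluster of miR-106a and miR-363, 1 passed the filter on low counts in KO and 2 in KI. edgeR called none of them, at an adjusted threshold of 0.1 or at an unadjusted p under 0.05. The product tested in KO was mmu-miR-19b-3p, which the miR-17~92a cluster also encodes. How many reads of mmu-miR-19b-3p and mmu-miR-92a-3p came from the X chromosome was not determined.

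The opposite arms of the member hairpins were scarce. mmu-miR-32-3p, the partner strand of mmu-miR-32-5p, had 0 to 3 counts per library, 5 in all WT and 2 in all KO libraries of batch 1, so no fold change is given. mmu-miR-92a-1-5p, cut from the hairpin on chromosome 14, was higher in KO, at 38.7 ± 9.34 CPM against 25.01 ± 5.09 CPM in WT (SD, n = 5 each). Its log2 fold change was 0.62 (SE 0.22, edgeR adjusted p = 0.0469). It rested on 17 to 36 counts per library, and the call was lost without KO replicate 3 (edgeR adjusted p = 0.115) and with no filter on low counts (edgeR adjusted p = 0.16). Without KO replicate 4 the edgeR adjusted p was 0.1. In KI its log2 fold change was 0.14 and was not called. mmu-miR-25-5p had log2 fold changes of -0.21 in KO and -0.30 in KI, neither called (edgeR adjusted p = 0.614 and 0.303). Single libraries moved these values widely, from -0.45 without KO replicate 2 to -0.045 without KO replicate 1, and from -0.41 without KI replicate 2 to -0.13 without WT replicate 6, and none of these fits called it. Of the 6 listed arms, 3 were tested in KO and 2 in KI.

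Whether a relative responded differently in the mutants was tested as the KO effect minus the KI effect in a fit of all 4 groups. The difference was -0.02 for mmu-miR-25-3p (SE 0.11, 95% interval -0.26 to 0.22, edgeR adjusted p = 0.943), -0.03 for mmu-miR-92a-3p (SE 0.13, edgeR adjusted p = 0.934) and -0.12 for mmu-miR-92b-3p (SE 0.40, edgeR adjusted p = 0.927). For mmu-miR-32-5p it was -0.67 with an SE of 0.25, given with no test. Over all 421 miRNAs 0 (0.0%) were called by edgeR, with 67 at an unadjusted p under 0.05. DESeq2 gave an adjusted p for 1134 miRNAs and called 0, with 72 at an unadjusted p under 0.05. Leaving out KI replicate 2 brought the edgeR calls to 26 and leaving out WT replicate 1 of batch 2 to 1, with none of the 3 relatives among them.

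Levels of the family could not be compared firmly across batches. Between WT of batch 2 and WT of batch 1, 217 of 383 miRNAs (56.7%) were called. Scaled together, mmu-miR-25-3p was at 7803 ± 736 CPM (SD, n = 5) in batch 1 and 8889 ± 434 CPM (SD, n = 6) in batch 2, a log2 difference of 0.19 that was called (edgeR adjusted p = 0.0291). mmu-miR-32-5p was at 82.7 ± 4.27 CPM and 109.5 ± 19.99 CPM, a log2 difference of 0.41. Neither mmu-miR-92a-3p (log2 0.08, edgeR adjusted p = 0.512) nor mmu-miR-92b-3p (log2 -0.31, edgeR adjusted p = 0.358) was called. With library totals as the only scaling the median of all miRNAs moved to -0.34, the split of the calls from 103 higher and 114 lower to 47 and 193. All 3 tested relatives were then called lower in batch 2, mmu-miR-25-3p at -0.14, mmu-miR-92a-3p at -0.25 and mmu-miR-92b-3p at -0.63, and mmu-miR-32-5p was at 0.07 and not called. The direction for mmu-miR-25-3p and mmu-miR-92a-3p thus depended on the scaling.

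Over the 22 libraries, with the batch mean taken off the log2 level, the members did not resemble each other closely. The Pearson correlation of mmu-miR-32-5p was 0.44 with mmu-miR-25-3p, -0.16 with mmu-miR-92a-3p and -0.25 with mmu-miR-92b-3p. Of 329 miRNAs compared, those closest to mmu-miR-32-5p were mmu-miR-881-3p (0.87), mmu-miR-190a-5p (0.86) and mmu-miR-467e-5p (0.85). For mmu-miR-25-3p they were mmu-miR-16-5p (0.92), mmu-miR-9-5p (0.83) and mmu-miR-148b-3p (0.82). For mmu-miR-92a-3p the closest was mmu-miR-34c-3p (0.80), and for mmu-miR-92b-3p they were mmu-miR-7222-5p (0.60) and mmu-miR-92a-3p (0.58). The points share genotype, library depth and scaling, so these values are a description.

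Some markers of other cells moved with the mutants beside the family. For comparison, edgeR called 71 of all 334 miRNAs tested higher and 69 lower in KO. In KI it called 70 of 387 higher and 77 lower. The white blood cell miRNAs had a summed level of 4748 to 5953 CPM in WT and 5401 to 7143 CPM in KO, with 3 of 5 called higher by edgeR. The 3 were mmu-miR-223-3p, mmu-miR-150-5p and mmu-miR-155-5p. Most of the sum was mmu-miR-142a-3p, which was not called in KO (log2 0.11, edgeR adjusted p = 0.391), nor was mmu-miR-142a-5p (edgeR adjusted p = 0.427). In batch 2 the sum was 2667 to 3403 CPM in WT and 3362 to 5271 CPM in KI, with 5 of 5 called higher. Of the endothelial and smooth muscle miRNAs, 2 of 3 tested, mmu-miR-143-3p and mmu-miR-145a-5p, were called higher in both mutants. The other, mmu-miR-126a-3p, made up most of the summed level and was not called. Its log2 fold change was 0.38 in KO (edgeR adjusted p = 0.327) and -0.04 in KI (edgeR adjusted p = 0.918). The sums were 208.8 to 483.7 CPM in WT and 250.8 to 551.8 CPM in KO, and 209.2 to 395.9 CPM in WT and 196.7 to 475.5 CPM in KI. Red blood cell miRNAs summed to 15.8 to 185 CPM over all libraries with none of 2 tested called by edgeR in either mutant, at the adjusted threshold or at an unadjusted p under 0.05, with mmu-miR-451a and mmu-miR-144-5p found in all 22 libraries, mmu-miR-486a-5p in 21 and mmu-miR-144-3p in 1. mmu-miR-202-5p, the only miRNA listed for gonadal somatic cells, was at 51.9 to 150.1 CPM in WT and 33.0 to 81.6 CPM in KO. In batch 2 mmu-miR-202-5p was at 71.8 to 142.5 CPM in WT and 56.1 to 78.0 CPM in KI. Whether it came from such cells here was not tested. Its log2 fold change was -0.71 in KO (edgeR adjusted p = 0.104) and -0.70 in KI (edgeR adjusted p = 0.00393), and the difference between them was not called. Of the 3 germ cell markers, 2 were called lower in KO and 1 in KI, with sums of 216300 to 263500 CPM in WT and 187300 to 245400 CPM in KO, and 322000 to 351400 CPM in WT and 289400 to 331100 CPM in KI. The part of these cells in the levels of mmu-miR-25-3p and mmu-miR-32-5p was not tested.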

How the data were processed

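The deposited values are raw counts of reads for each sample and mature miRNA. To make them, the authors removed adapters and kept reads of at least 15 bases, aligned them to GRCm38 with Bowtie2 in local mode with many alignments allowed per read, and counted them by strand on mature miRNAs of miRBase with featureCounts, as the methods and the file headers give it. The submitters' processing notes name cutadapt 3.4, Bowtie2 2.4.2, FastQC 0.11.9, SAMtools 1.12 and Subread 2.0.1. No option for multi-mapped reads stands in the counting command. The count of mmu-miR-92a-3p, a name with 2 loci, was odd in 13 of 22 libraries, and how its reads, or reads that could come from close relatives, were shared among loci was not determined. No collapsing of reads by molecular identifier is named in these sources.

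Groups and batches followed the sample labels, whereas the methods name the KI batch first. All 22 per-sample columns were used, and 0 were left out. Total counts were 559957 to 3239357, and 3 counts per library were taken as the floor, which covers counting error only. Libraries of a group differed by more than sampling noise. Nothing states that they came from separate mice, so p-values measure the spread between these samples.

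Each mutant was compared with the WT of its batch by quasi-likelihood in edgeR 4.0.16 (R 4.3.3, TMM, filterByExpr). The threshold was a Benjamini-Hochberg adjusted p of 0.1 over all miRNAs tested. WT between batches and the KO effect minus the KI effect were fitted separately. CPM were scaled by TMM within a batch. Likeness is Pearson's r of log2(CPM + 1) after the batch mean was taken off. Ratios used exact permutation tests in scipy 1.17.1 under Python 3.11.15. The fit was tested on simulated data. Alternatives were RLE scaling, library totals as the only scaling, no filter, DESeq2 1.42.0, a replicate block, 1 fit of all 4 groups, and each library left out.

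All 5 members are named, with lists of the other arms and of the miR-106b~25, miR-17~92a and miR-106a to miR-363 clusters. The members and lists were chosen with earlier results of these data known. The arms and cluster products given values were picked after their values had been seen. Sequences came from RefSeq, and loci from the deposited table with GENCODE annotation of GRCm38.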

Additional observations from a re-analysis of the deposited data

Results flagged for a closer look

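In 5 of 44 combinations of a measure and a group that were screened, a single library lay far from the rest of its group; chance gives about 1 in 20, or 2.2 of 44. The measures are not independent, since mmu-miR-25-3p and mmu-miR-92a-3p make up nearly all of the summed level. The figure of 2.2 is therefore only a rough guide. Replicate 2 of the batch 1 WT accounted for 3 of the 5. Its mmu-miR-25-3p was at 13.3 on the log2 CPM scale, above the 13.10 to 13.14 of the other 4 libraries. Its mmu-miR-92a-3p was at 13.34, above 12.90 to 12.98, and the log2 of its summed family level was 14.33, above 14.04 to 14.07. Replicate 3 of the batch 2 WT had the lowest mmu-miR-25-3p of its group, 12.91 against 13.01 to 13.06. Without it the log2 fold change of mmu-miR-25-3p in KI was -0.19 (edgeR adjusted p = 0.0259). Replicate 1 of the batch 2 WT had a log2 ratio of mmu-miR-25-3p to mmu-miR-92a-3p of 0.42, above the 0.14 to 0.24 of the other 5.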

How the results depend on the processing

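Depth limits mmu-miR-92b-3p (5 to 44 counts per library) and mmu-miR-363-3p (at most 3), and KO libraries were the shallowest. The cause of the differences between settings was not tested. All values below are log2 and come from edgeR unless stated otherwise.

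For mmu-miR-25-3p in KO, no filter gave -0.24 (adjusted p = 0.0781) and 1 fit of all 4 groups -0.21 (adjusted p = 0.0643), so that 1 relative was called under each, while library totals gave -0.082 (adjusted p = 0.396). In KI it was -0.083 with library totals as the only scaling and -0.16 with no filter, neither past the threshold, which left 0 relatives called. Leaving WT replicate 2 of batch 1 out of the summed level and of the WT levels was chosen after seeing the data. The sign of mmu-miR-92a-3p turned in KO under RLE scaling (0.008) and library totals (0.10), and in KI in 1 fit of all 4 groups (-0.006). In that fit mmu-miR-93-5p was called in KI (-0.21). Between the WT of the batches, library totals gave -0.14 for mmu-miR-25-3p, 0.074 for mmu-miR-32-5p, -0.25 for mmu-miR-92a-3p and -0.63 for mmu-miR-92b-3p, with 3 relatives called. For the KO effect minus the KI effect, library totals gave 0.001 for mmu-miR-25-3p.

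With each library left out in turn, the KO values ran from -0.28 to -0.14 for mmu-miR-25-3p, -0.045 to 0.07 for mmu-miR-92a-3p, 0.07 to 0.37 for mmu-miR-92b-3p and -1.18 to -1.02 for mmu-miR-32-5p, with 0 to 1 relatives called. The KI values ran from -0.20 to -0.10, -0.042 to 0.071, 0.20 to 0.49 and -0.52 to -0.33 in the same order, with 0 to 1 called. WT between batches ran from 0.004 to 0.18 for mmu-miR-92a-3p, past the threshold without WT replicate 2 of batch 1, with 1 to 2 relatives called. The KO effect minus the KI effect ran from -0.22 to 0.05, -0.14 to 0.062 and -0.27 to 0.022 for the 3 relatives, and 0 to 26 miRNAs were called.

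Whether the replicate numbers pair the samples could not be settled. The deviations of same-numbered samples correlated by over 0.1 in 2 of 5 pairs in batch 1 (mean r 0.05). In batch 2 they did so in 3 of 6 pairs (mean r 0.20, highest 0.56). Closest to their own number were 1 of 5 KO and 3 of 6 KI samples. Same-numbered WT samples of different batches had a mean r of 0.12. With a replicate block, mmu-miR-25-3p was at -0.20 in KO and -0.17 in KI, and no call of a relative changed, whereas mmu-miR-93-5p lost its call in KO (-0.15, adjusted p = 0.162) and gained one in KI (-0.19, adjusted p = 0.0163). The block called 124 miRNAs in KO, 165 in KI and 25 for the KO effect minus the KI effect, no relative among the 25.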
